A study of Mus musculus with 6 samples.

Results

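Immediate early genes are the genes that a cell switches on within minutes of a growth factor, cytokine or stress signal, before any new protein has been made. The set described here holds 10 of them (Fos, Fosb, Jun, Junb, Egr1, Ier2, Ier3, Atf3, Dusp1 and Zfp36) of 22180 measured genes. The rule took each gene's brightest probe set annotated to that gene alone, and all 10 were measured, each by 1 such probe set. RNA came from 6 tumours of B16-F1 cells, a pigmented mouse melanoma line, which had grown at the dorsal flank and were harvested and frozen at day 20. The groups were 3 tumours from Stat2 KO hosts and 3 tumours from WT hosts, all hosts having a C57BL6 background. Only the host is labelled as lacking Stat2, and nothing is said of the Stat2 gene of the implanted cells. Larger tumours were recorded in Stat2 KO hosts, per the series' design text, and the comparison asks how tumour expression differs between the hosts. Whether the tumours of a group came from separate mice is not in the labels, and the p-values reflect the variation among these 6 tumours only.

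In the textbook scheme, growth factor receptors signal through the Ras, Raf, MEK and ERK kinases to serum response factor and its ternary complex partners, and through other kinases to CREB. These factors are already present in the cell and act on immediate early promoters through short elements, the CArG box for serum response factor and the cyclic AMP response element for CREB and ATF proteins. The first products include the AP-1 subunits of the Fos and Jun families and the zinc finger factor Egr1, which act on later genes. Other products end the response: Dusp1 dephosphorylates the MAP kinases, and Zfp36 speeds the decay of short-lived mRNAs. The transcripts are unstable, so their level in a tissue can change quickly.

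RefSeq promoters (GRCm38.p6, 250 bases before and 50 after the annotated start) matched 8 of the 10 members. Those of Fos, Junb and Zfp36 are shown because these genes had some of the highest correlations with the rest of the set over the 6 tumours, and that of Dusp1 because it holds the full cyclic AMP response element. Jun is not shown, although its correlation with the rest was 0.80, as was that of Zfp36. The Jun window holds none of the elements marked here, so the windows shown do not relate elements to correlation. Capitals mark the CArG box (searched as a 10-base pattern on both strands), the full cyclic AMP response element TGACGTCA and its 5-base core TGACG or, read on the other strand, CGTCA. The full element contains the core on both strands. The windows are chr12:85473640-85473939 on the plus strand for Fos, and chr8:84978699-84978998, chr7:28379179-28379478 and chr17:26508423-26508722, all on the minus strand, for Junb, Zfp36 and Dusp1.
Fos: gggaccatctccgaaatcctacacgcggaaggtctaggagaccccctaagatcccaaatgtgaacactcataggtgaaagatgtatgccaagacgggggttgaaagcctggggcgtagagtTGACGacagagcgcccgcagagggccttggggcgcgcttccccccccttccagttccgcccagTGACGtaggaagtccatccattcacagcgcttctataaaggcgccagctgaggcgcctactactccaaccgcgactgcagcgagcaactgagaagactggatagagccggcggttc
Junb: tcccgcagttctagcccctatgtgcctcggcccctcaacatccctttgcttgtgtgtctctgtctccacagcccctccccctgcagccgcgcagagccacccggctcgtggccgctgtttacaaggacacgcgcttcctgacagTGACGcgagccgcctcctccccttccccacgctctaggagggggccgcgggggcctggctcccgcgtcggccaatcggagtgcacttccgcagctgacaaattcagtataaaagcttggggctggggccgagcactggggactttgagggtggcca
Zfp36: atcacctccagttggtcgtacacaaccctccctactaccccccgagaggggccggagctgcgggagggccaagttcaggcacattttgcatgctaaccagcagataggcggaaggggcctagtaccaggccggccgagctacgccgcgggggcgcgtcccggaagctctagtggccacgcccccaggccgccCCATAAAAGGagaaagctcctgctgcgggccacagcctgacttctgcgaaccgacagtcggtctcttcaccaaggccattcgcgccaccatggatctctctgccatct
Dusp1: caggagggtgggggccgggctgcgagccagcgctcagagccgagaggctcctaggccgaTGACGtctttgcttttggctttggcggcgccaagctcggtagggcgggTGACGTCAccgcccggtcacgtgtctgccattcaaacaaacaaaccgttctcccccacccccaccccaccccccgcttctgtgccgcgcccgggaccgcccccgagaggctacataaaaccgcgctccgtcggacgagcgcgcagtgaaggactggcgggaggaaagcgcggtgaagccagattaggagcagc
The core was found in 5 of the 8 member windows (Fos, Fosb, Junb, Atf3 and Dusp1) and in 20.8% of all 32851 promoter windows. The full element was found in 1 member window, that of Dusp1, and in 1.79% of all windows. A CArG box was found in 1, that of Zfp36, starting at position -58, and in 1.63% of all windows. The AP-1 site TGACTCA or TGAGTCA was in 0 member windows and in 5.20% of all. A match is a description of letters in this window and does not show that a factor binds there.

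The deposited values are log2 expression values, so a difference of 1 is a doubling. Array medians over all genes lay between 6.31 and 6.44 in Stat2 KO hosts against between 6.27 and 6.34 in WT hosts, and correlations between arrays lay between 0.964 and 0.986. All 10 melanocyte markers read at a mean of 9.27 or more, so the defining markers of the labelled tissue were present. Stat2 itself, read by 1 probe set whose position relative to the deleted part is unknown here, had 6.45, 6.48 and 6.33 in Stat2 KO hosts against 6.79, 6.70 and 6.70 in WT hosts. Detection calls were not used here. As a gauge of background, the 1105 genes of olfactory receptors, proteins of the nose that tumours have no known need of, had a median level of 5.21 and a 95th percentile of 6.72. The mean levels of Egr1, Ier2 and Fosb lay below that percentile and those of the other 7 members above it, so the sizes of the differences of Egr1, Ier2 and Fosb are uncertain. Probe sets differ in affinity, so levels are compared between tumours and not between genes. In bulk tumours, fewer cells that use a gene and less RNA of it per cell cannot be told apart.

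The Fos and Jun family members were not shown to differ between hosts. Fos, the AP-1 subunit that pairs with Jun proteins, read 7.13, 7.15 and 6.93 in Stat2 KO hosts against 7.18, 7.53 and 7.11 in WT hosts. WT tumour 2 stood above the other tumours, Stat2 KO tumour 3 was lowest and the groups overlapped, with a difference of -0.20 (Stat2 KO minus WT, SE 0.15, limma adjusted p = 0.697). Jun, the partner that can also pair with itself, read 8.25, 7.86 and 7.59 in Stat2 KO hosts against 7.87, 8.41 and 7.97 in WT hosts. The same tumours lay at the ends, but Stat2 KO tumour 1 was close to the top, and the difference was -0.18 (SE 0.19, limma adjusted p = 0.782).

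Junb, a Jun family subunit that is a weaker activator than Jun, varied little, with a span of 1.24-fold between the highest and the lowest tumour. It read 7.56, 7.58 and 7.36 in Stat2 KO hosts against 7.59, 7.66 and 7.58 in WT hosts. The groups did not overlap, but 2 of the 3 Stat2 KO tumours lay just under the WT tumours, and the difference was -0.11 (SE 0.13, limma adjusted p = 0.803, exact permutation p = 0.1, the smallest that 3 against 3 allows). Fosb, a relative of Fos, read 5.97, 6.22 and 6.06 in Stat2 KO hosts against 5.80, 6.26 and 6.12 in WT hosts. Its groups covered each other, with a difference of 0.02 (SE 0.15, limma adjusted p = 0.971) whose sign turned under 5 of 12 alternatives.

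Atf3, a stress-induced relative of the AP-1 subunits that often represses its targets, read 7.28, 7.62 and 7.36 in Stat2 KO hosts against 7.61, 7.75 and 7.50 in WT hosts. Stat2 KO tumour 2 lay among the WT tumours and the other 2 lay below them, with a difference of -0.20 (SE 0.14, limma adjusted p = 0.684). Egr1, the zinc finger factor, was 1 of the 3 members with a higher mean in Stat2 KO hosts. It read 5.59, 6.01 and 5.79 in Stat2 KO hosts against 5.75, 5.72 and 5.25 in WT hosts, with its lowest value in WT tumour 3. The difference was 0.22 (SE 0.17, limma adjusted p = 0.708), without WT tumour 3 it was 0.06, and all these values lay in the range of the olfactory receptor genes.

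Ier2 and Ier3 share a name but not a protein family, and their differences had opposite signs. Ier2, a nuclear protein with a part in transcriptional regulation, read 5.76, 5.83 and 5.62 in Stat2 KO hosts against 6.04, 6.32 and 5.84 in WT hosts. The groups did not overlap, although Stat2 KO tumour 2 and WT tumour 3 lay within 0.01 of each other. Ier2 had the smallest p of the 10 members, at a difference of -0.33 (SE 0.15, 95% interval -0.66 to 0.00296, unadjusted p = 0.0518, limma adjusted p = 0.568, exact permutation p = 0.1). Ier3, which takes part in cell survival and in NF-kB and ERK signalling, read 10.14, 10.47 and 9.60 in Stat2 KO hosts against 9.65, 10.17 and 9.78 in WT hosts. The Stat2 KO tumours held both the highest and the lowest value of Ier3, and the difference was 0.20 (SE 0.21, limma adjusted p = 0.778). Its difference ranged from 0.00 to 0.44 when single tumours were left out.

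Both feedback genes varied more among Stat2 KO tumours than among WT tumours, a difference in spread that was not tested. Zfp36, the mRNA decay factor also called tristetraprolin, read 7.09, 6.996 and 5.98 in Stat2 KO hosts against 6.98, 7.21 and 7.03 in WT hosts. Stat2 KO tumour 3 stood apart, 2.34-fold below the highest tumour, while the other 5 lay close together. The SD of Zfp36 was 0.61 in Stat2 KO hosts against 0.12 in WT hosts (n = 3 each), and its SD over all 6 tumours exceeded that of 97.3% of all genes. The difference of Zfp36 was -0.38 (SE 0.24, 95% interval -0.91 to 0.14, limma adjusted p = 0.648), and without Stat2 KO tumour 3 it was -0.03.

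Dusp1, the MAP kinase phosphatase, read 7.13, 6.58 and 6.58 in Stat2 KO hosts against 6.91, 6.96 and 7.11 in WT hosts. Stat2 KO tumours 2 and 3 lay below the other tumours and Stat2 KO tumour 1 was the highest of the 6. The SD was 0.32 in Stat2 KO hosts against 0.11 in WT hosts (n = 3 each), and the difference was -0.23 (SE 0.17, limma adjusted p = 0.687). Without Stat2 KO tumour 1 the Dusp1 difference was -0.41, and without Stat2 KO tumour 2 it was -0.14.

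**Figure D1:**
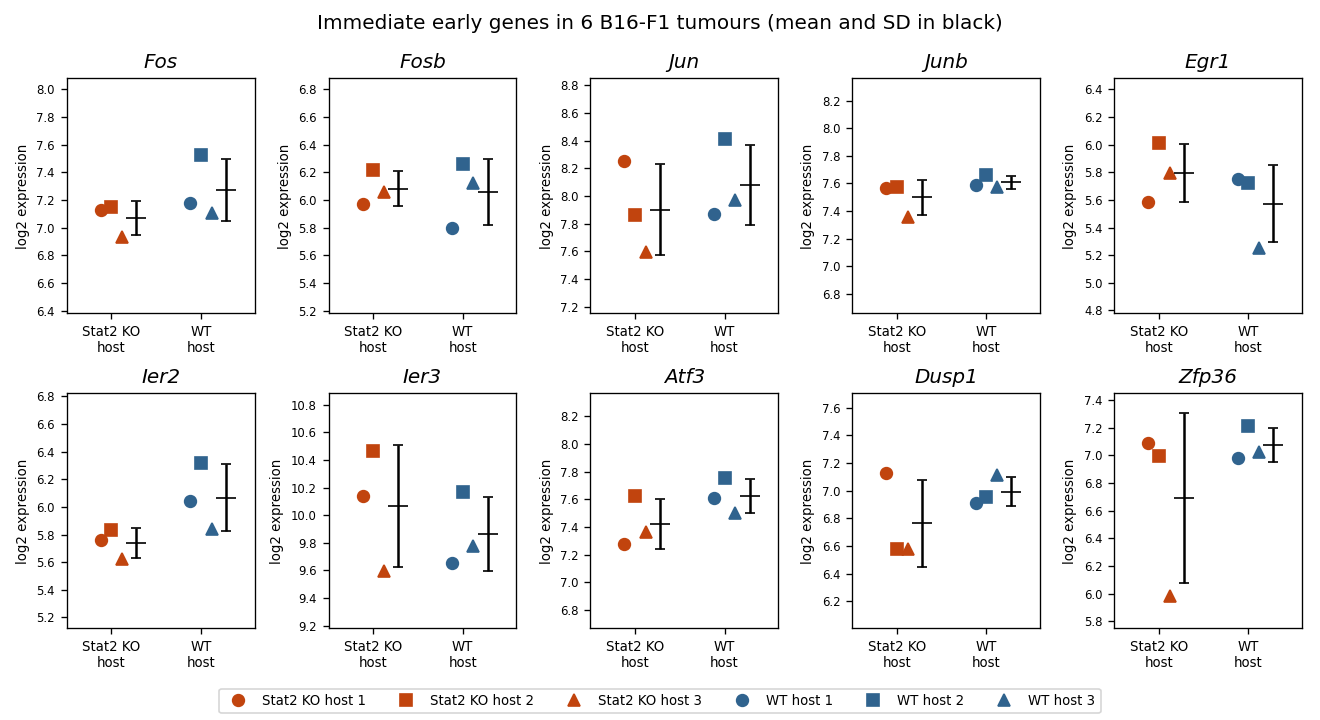
Log2 expression (vertical axes, each covering the same span of log2 units) of the 10 immediate early genes in 3 Stat2 KO host tumours (orange, left) and 3 WT host tumours (blue, right); each point is 1 tumour, its shape gives the tumour number, and black bars show the mean and SD of the group. The groups overlap for all genes except Junb and Ier2, and the value of Zfp36 in Stat2 KO tumour 3, 5.98, lies apart from the other 5.

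Over the set, 7 members were lower and 3 higher in Stat2 KO hosts, with a median log2 difference of -0.19 and a range of -0.38 to 0.22. Over all genes the median difference was 0.02 and 46% were lower. Brighter genes leaned lower in general: of genes above the median level, 65.3% were lower with a median of -0.07, against 6 of the 7 members in that range. After centring each array on its median, 8 of 10 members and 60.3% of all genes were lower. The limma adjusted p of 0 of 10 members was under 0.05 (0.00902% of all genes passed lower and 0% higher), and 0 of 10 had an unadjusted p under 0.05 (8.82% of all genes, 3.48% lower and 5.34% higher). Groups did not overlap for 2 of 10 members, both lower, where this held for 13.3% of all genes (5.11% lower and 8.23% higher), a share near the background at this number of genes. All 10 of the 95% intervals included 0, from the narrowest, -0.40 to 0.17 for Junb, to the widest, -0.91 to 0.14 for Zfp36, and a difference inside these intervals was not resolved with 3 tumours a side.

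The size of the median difference depended in part on 2 tumours. It was -0.04 without Stat2 KO tumour 3 and -0.08 without WT tumour 2, with 7 members lower and 3 higher each time. Without both the median was 0.02, with 5 members lower and 5 higher, an alternative chosen after the data had been seen. These 2 were the Stat2 KO tumour with the lowest and the WT tumour with the highest mean deviation of the set. Leaving both out therefore favours an upward move by construction and cannot test the direction. Without Stat2 KO tumour 3 the differences of Zfp36, Jun and Junb were -0.03, -0.03 and -0.04. Without WT tumour 2 those of Jun and Fos were -0.02 and -0.07. The difference of Ier2 stayed between -0.44 and -0.20 whichever tumour was left out.

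**Figure D2:**
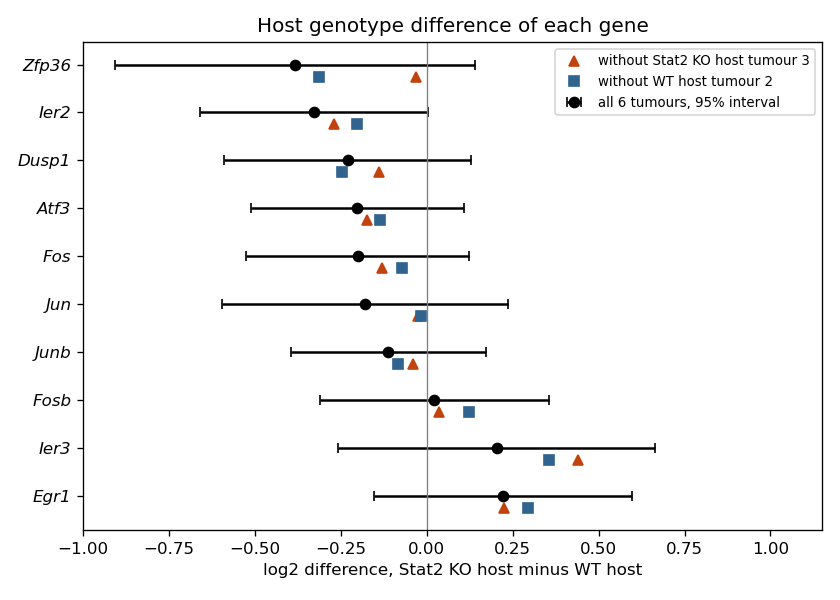
Log2 difference, Stat2 KO host minus WT host (horizontal axis), of each of the 10 genes (rows), with the 95% interval of the limma fit over 6 tumours in black, the value without Stat2 KO tumour 3 as orange triangles and the value without WT tumour 2 as blue squares. All 10 intervals include 0, and the value of Zfp36 lies at -0.03 without Stat2 KO tumour 3 where it was -0.38 with all tumours.

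The lowest and the highest values of the members fell most often in the same 2 tumours. Stat2 KO tumour 3 held the lowest value of 6 of the 10 members (Fos, Jun, Junb, Ier2, Ier3 and Zfp36), where it held the lowest value of 15.3% of all genes. WT tumour 2 held the highest value of 7 members (Fos, Fosb, Jun, Junb, Ier2, Atf3 and Zfp36), where it held the highest value of 13.4% of all genes. Both ends held for 5 members (Fos, Jun, Junb, Ier2 and Zfp36) and for 4.66% of all genes. Among genes above the median level the shares were higher, with 22.8% lowest in Stat2 KO tumour 3 and 18.8% highest in WT tumour 2, against 5 and 5 of the 7 members in that range. After a further quantile normalization the counts were 5 of 10 lowest in Stat2 KO tumour 3 and 6 of 10 highest in WT tumour 2, beside 17.8% and 17.9% of all genes. After median centring they were 7 and 7, beside 19.3% and 19.6% of all genes.

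The mean deviation of the 10 members from their own 6-tumour means was 0.03, 0.07 and -0.28 in Stat2 KO tumours 1 to 3 and -0.02, 0.24 and -0.03 in WT tumours 1 to 3. The other 4 tumours therefore lay within 0.1 of the mean, with 1 low tumour in the Stat2 KO group and 1 high tumour in the WT group. Without Zfp36 the mean was -0.21 in Stat2 KO tumour 3 and 0.23 in WT tumour 2. All 10 members were above their own mean in WT tumour 2, and 9 were below it in Stat2 KO tumour 3, the exception being Egr1. The median deviation over all genes was 0.01 in Stat2 KO tumour 3 and 0.00 in WT tumour 2.

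A further 35 immediate early genes, none of them in the set, were listed as a second reading of the same tumours, and 34 had a probe set of their own. They included the nuclear receptors Nr4a1 to Nr4a3, the MAP kinase phosphatases Dusp2, Dusp5 and Dusp6, Myc and Klf family factors. Stat2 KO tumour 3 held the lowest value of 13 of the 34 and WT tumour 2 the highest value of 18. Both ends held for 9 of the 34. Among genes above the median level the counts were 10 and 16 of 27, beside 22.8% and 18.8% of all genes in that range. Over all 34, the counts were 12 and 16 after quantile normalization and 17 and 23 after median centring, beside the same shares of all genes as above. The mean deviation of the 34 genes was -0.16 in Stat2 KO tumour 3 and 0.18 in WT tumour 2, and between -0.03 and 0.01 in the other 4 tumours. Zfp36l2, a relative of Zfp36, had 7.64, 7.47 and 7.10 in Stat2 KO hosts against 7.79, 8.04 and 7.65 in WT hosts. Gadd45b, a stress-induced gene, had 6.67, 6.79 and 6.53 in Stat2 KO hosts against 6.94, 7.28 and 6.95 in WT hosts. Both genes were lowest in Stat2 KO tumour 3 and highest in WT tumour 2.

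**Figure D3:**
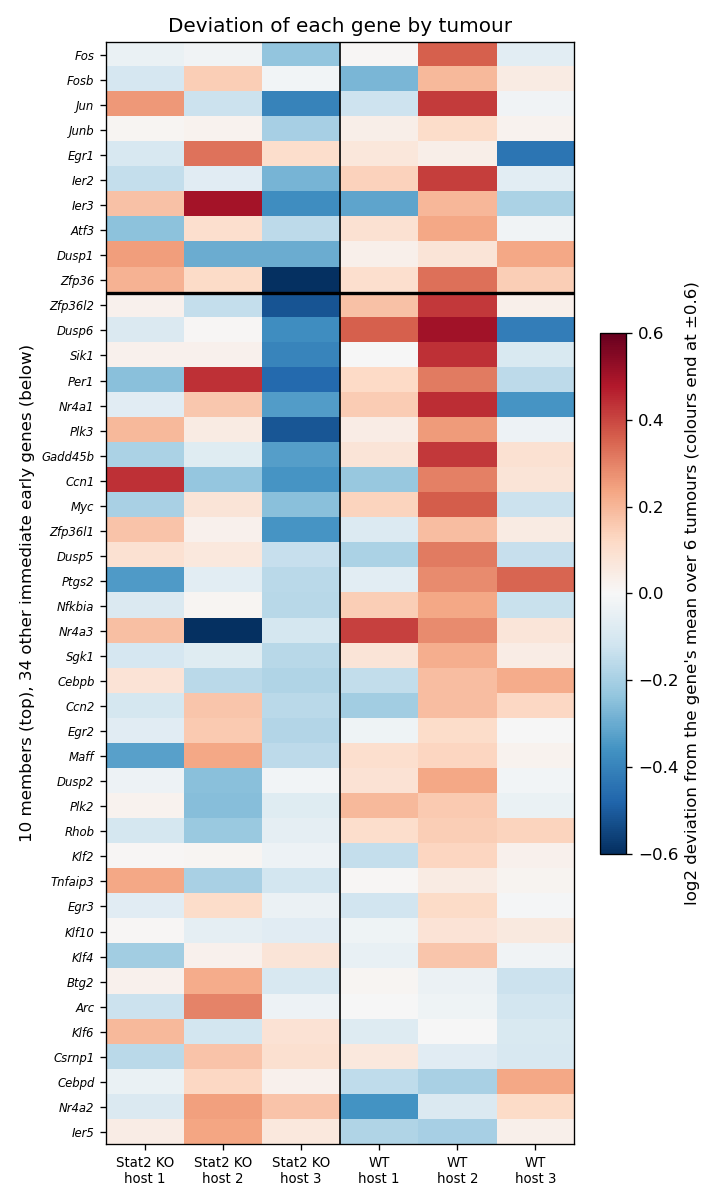
Log2 deviation of each gene from its own mean over 6 tumours (colour, blue below and red above, ending at 0.6 in each direction), with tumours as columns (3 Stat2 KO hosts, then 3 WT hosts) and genes as rows: the 10 members above the black line and 34 other immediate early genes below it, ordered by WT tumour 2 minus Stat2 KO tumour 3. The Stat2 KO tumour 3 column is mostly blue (mean -0.28 over the members) and the WT tumour 2 column mostly red (mean 0.24).

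Between members, 38 of the 45 pairs had a positive Pearson correlation over the 6 tumours, with a median of 0.40 and a range of -0.80 to 0.97. Taken on deviations from the group means, 40 pairs were positive and the median was 0.54, but each group holds 1 of the extreme tumours. Without Stat2 KO tumour 3 and WT tumour 2, a choice made after seeing the data, 20 of the 45 pairs were positive and 25 negative over the 4 tumours left, with a median of -0.13. Of the 10 pairs among Fos, Jun, Junb, Ier2 and Zfp36, 4 were then positive and 6 negative. The points of every pair share the same 6 arrays. Each member's median correlation with all genes lay between -0.06 and 0.07. After Benjamini-Hochberg adjustment over the 45 pairs, 0 passed by exact permutation of either coefficient, while 6 had an unadjusted p under 0.05 by Pearson's r and 3 by Spearman's rho.

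Fos and Ier2 followed each other closely, with r = 0.95 (exact permutation p = 0.00556, adjusted p = 0.25) and rho = 0.83 (exact permutation p = 0.0583, adjusted p = 0.514). Without WT tumour 2 and Stat2 KO tumour 3, the tumours farthest from the median of Fos, r was 0.76. Of all genes, 0.239% reached the same r with Fos. Junb and Ier2 ranked the tumours in the same order, with rho = 1 (exact permutation p = 0.00278, the smallest possible, adjusted p = 0.125) and r = 0.80 (exact permutation p = 0.0653, adjusted p = 0.326). Without the same 2 tumours r was 0.96, over Junb values between 7.5645 and 7.5896 only. The shared order rested in part on near-ties. Stat2 KO tumour 2 and WT tumour 3 had 7.5758 and 7.5768 for Junb, and 5.834 and 5.8398 for Ier2. Ier2 also lay in the range of the olfactory receptor genes. Of all genes, 4.03% reached the r of 0.80 with Junb and 4.06% with Ier2.

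The highest r of any pair was that of Junb and Zfp36, at 0.97 (exact permutation p = 0.0319, adjusted p = 0.326), with rho = 0.49 (exact permutation p = 0.356, adjusted p = 0.667). It rested on the extreme tumours: without Stat2 KO tumour 3 and WT tumour 2, r was -0.90. The r of 0.97 with Junb was reached by 0.0812% of all genes. Jun and Zfp36 had r = 0.79 (exact permutation p = 0.0111, adjusted p = 0.25) and rho = 0.94 (exact permutation p = 0.0167, adjusted p = 0.25), with r = 0.96 without WT tumour 2 and Stat2 KO tumour 1. Of all genes, 3.75% reached the r of 0.79 with Jun and 3.90% with Zfp36. Egr1 and Dusp1 ran in opposite directions, with r = -0.80 (exact permutation p = 0.0403, adjusted p = 0.326) and rho = -0.94 (exact permutation p = 0.0167, adjusted p = 0.25), and with r = -0.87 without WT tumour 3 and Stat2 KO tumour 2. An r of -0.80 or higher was found for 98.1% of all genes with Egr1 and 94.7% with Dusp1, and the others had a lower one. Egr1 lay in the range of the olfactory receptor genes.

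Set against the mean deviation of the other 9 members, Junb, Fos, Zfp36, Jun and Ier2 had r of 0.92, 0.90, 0.80, 0.80 and 0.75. Atf3 and Ier3 followed with 0.59 and 0.58, then Fosb with 0.35 and Dusp1 with 0.24. Egr1 had -0.09, the 1 negative value. With 6 tumours these values describe the arrays at hand and do not order neighbouring genes.

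**Figure D4:**
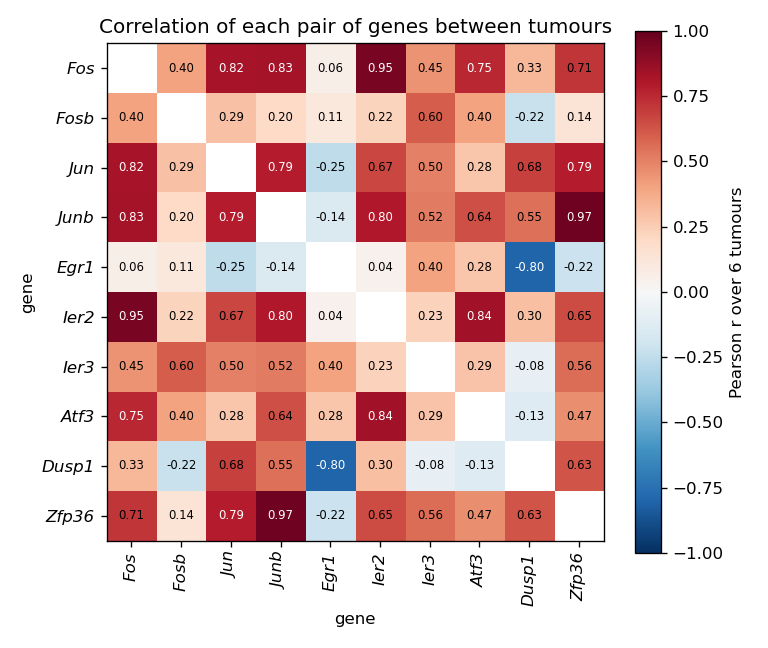
Pearson correlation over 6 tumours (colour and number) of each pair of the 10 genes, which stand on both axes. Fos, Jun, Junb, Ier2 and Zfp36 are positively correlated with each other over the 6 tumours (0.65 or more), and Egr1 with Dusp1 is at -0.80.

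Genes outside the set with a level and an SD above the median of all genes were compared, with predicted transcripts and clone-named genes passed over. Of these 4595 genes, the 10 most like the mean of the members had r between 0.96 and 0.98 over the 6 tumours, and 18 exceeded 0.95. They were Snapc2, Gtpbp1, Pcolce, Sik1, Marveld1, Troap, Lrp8, Zkscan17, Rnf25 and Trappc9, in falling order of r. Sik1, a salt-inducible kinase that was on the second list of immediate early genes, read 8.25, 8.25 and 7.83 in Stat2 KO hosts against 8.22, 8.66 and 8.13 in WT hosts. Snapc2, a subunit of a complex that binds the promoters of small nuclear RNA genes, read 7.75, 7.94 and 7.33 in Stat2 KO hosts against 7.78, 8.11 and 7.74 in WT hosts. These 10 genes were chosen for this likeness, so their values are a description.

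Of the 34 other immediate early genes, 25 were lower and 9 higher with a median of -0.13, 0 passed over all genes in either direction, and 4 had an unadjusted p under 0.05, all lower, where 3.48% of all genes did so lower and 5.34% higher. That count was 1 without Stat2 KO tumour 3 and 0 without WT tumour 2. The 4 genes were Gadd45b (-0.40), Zfp36l2 (-0.42), Ptgs2, which encodes the inducible cyclooxygenase (-0.38), and Nr4a3 (-0.51), with limma adjusted p-values of 0.509, 0.525, 0.527 and 0.553. As in the set, the median moved towards 0 without Stat2 KO tumour 3 (-0.02) or WT tumour 2 (-0.04), and to 0.01 without both.

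Of 11 other measured subunits that pair within AP-1, 10 were lower and 1 higher with a median of -0.28, and 0 passed. All 11 lay above the median level, where 65.3% of genes were lower with a median of -0.07. Jdp2, a repressor that pairs with Jun proteins, read 7.13, 6.86 and 6.76 in Stat2 KO hosts against 7.65, 7.63 and 7.48 in WT hosts. Every Stat2 KO tumour lay below every WT tumour, and the difference was -0.67 (SE 0.14, limma adjusted p = 0.316). Atf4, the effector of the integrated stress response, read 7.41, 7.35 and 7.14 in Stat2 KO hosts against 7.67, 8.01 and 7.81 in WT hosts. Its groups were apart as well, with a difference of -0.52 (SE 0.14, limma adjusted p = 0.460). Groups were apart in this direction for 2 of the 11 subunits and for 5.11% of all genes. Jdp2 and Atf4 were named for their small p-values, a choice that favours such separation. Both passed with array weights (limma adjusted p = 0.0252 and 0.037, over the alternatives 0.0252 to 0.858 and 0.037 to 0.908), a setting under which 129 genes (0.582%) passed lower and 128 (0.577%) higher over the whole table, against 2 and 0 with equal weights. The median of these subunits was -0.19 without both extreme tumours.

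Upstream of the set, 15 of 17 measured kinases and factors were lower and 2 higher, with a median of -0.15 and 0 passing. All 17 lay above the median level as well, among genes that leaned lower in general. The kinase gene Map2k2, which encodes MEK2, differed by -0.42 and Mrtfa, a partner of serum response factor, by -0.36 (limma adjusted p = 0.512 and 0.535). Without Stat2 KO tumour 2 the median was -0.04, with 10 lower and 7 higher. Heat shock genes, which respond to protein damage, were lower in 11 of 12 with a median of -0.06 and 0 passing. Of the 10 above the median level, 9 were lower with a median of -0.04. Of all genes in that range, 65.3% were lower with a median of -0.07. Without Stat2 KO tumour 2, 7 of the 12 were lower and 5 higher with a median of -0.0091, and with array weights 7 and 5 with a median of -0.013. The inducible chaperone Hspa1a read 5.09, 5.19 and 5.01 in Stat2 KO hosts against 5.14, 5.93 and 5.24 in WT hosts, with WT tumour 2 apart from the other 5. Over the heat shock list, however, the mean deviation was 0.05 in Stat2 KO tumour 3 and 0.11 in WT tumour 2, and the low tumour was Stat2 KO tumour 2, at -0.27.

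Of 10 macrophage markers, 9 were lower in Stat2 KO hosts with a median of -0.30 and 0 passing, among them the complement genes C1qb (-0.95) and C1qc (-0.49), Ms4a7 (-0.83) and the lysosomal Cd68 (-0.61). The levels of 3 of the 10 lay above the 95th percentile of the olfactory receptor genes, those of C1qc and Ms4a7 did not, and the sizes of their differences are uncertain. All 4 passed with array weights (limma adjusted p = 0.0187, 0.0423, 0.0431 and 0.037), the setting with 129 and 128 calls over all genes. C1qb also passed without WT tumour 3 (limma adjusted p = 0.0341, where all alternatives lay between 0.0187 and 0.623). In that setting 14 genes passed lower and 3 higher over the whole table. The summed level of the 10 markers on the log2 scale was 9.65 to 9.77 in Stat2 KO hosts against 9.96 to 10.26 in WT hosts, without overlap. Stat2 KO tumour 3, the low tumour of the set, had the highest summed macrophage level of its group, at 9.77, whereas WT tumour 2 had the highest of all, at 10.26. Fibroblast markers were lower in 9 of 10, with a summed level of 9.86 to 10.36 in Stat2 KO hosts against 10.44 to 10.62 in WT hosts. Melanocyte markers overlapped, at 15.01 to 15.45 in Stat2 KO hosts against 15.23 to 15.50 in WT hosts. Endothelial markers overlapped as well, at 10.71 to 11.16 in Stat2 KO hosts against 10.96 to 11.07 in WT hosts. Of the fibroblast and of the endothelial markers, 5 of 10 each lay above that percentile. Markers of T and NK cells, neutrophils, keratinocytes, skeletal muscle and red blood cells had 0 members above the 95th percentile of the olfactory receptor genes. The part of these cell types in the immediate early gene values was not tested.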

How the data were processed

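Per the submitters' processing notes, the authors made the deposited log2 expression values with Affymetrix Expression Console 1.3.1 and RMA, 1 value per probe set and array, from biotin-labelled cRNA of total tumour RNA. No genome build is named there, and probe sets were named through the platform annotation. The file holds 41345 probe sets, of which 23521 name 1 gene, 1814 several and 16010 none. Each of 22180 genes was read by its brightest probe set naming it alone, with no filter on dim genes. Stat2 KO host minus WT host was fitted with limma 3.58.1 in R 4.3.3 (lmFit, eBayes with an intensity trend, two-sided, Benjamini-Hochberg over all genes, threshold 0.05), and the procedure was tested on simulated data. Limma gave the SEs, intervals and adjusted p-values. Single values and correlations were tested by exact two-sided permutation. The members and gene lists were chosen with earlier results of these data known. All 10 members are named; of other lists, up to 4 genes with the smallest p. Older symbols were matched through RefSeq synonyms. Alternatives tried were a replicate block, quantile normalization, median centring, leaving out genes dimmer than the median, averaging a gene's probe sets, array weights, eBayes with no trend, and each tumour left out. The number of arrays limits the precision.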

Additional observations from a re-analysis of the deposited data

How the results depend on the processing

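Under the 13 alternatives 0 of the 10 members passed the adjusted threshold, and the differences of 8 members (all but Fosb and Ier3) kept their sign in all of those that tested them. Without both Stat2 KO tumour 3 and WT tumour 2, a setting outside those 13, 5 members were lower and 5 higher, so some of these signs turned. Fosb turned to -0.055 after quantile normalization, -0.053 after median centring and -0.065 with array weights, and ranged from -0.11 to 0.12 when single tumours were left out; Ier3 turned to -0.17 with array weights. Members with an unadjusted p under 0.05 numbered 1 with the replicate block (2484 of all 22180 genes), 1 after quantile normalization (1683 genes) and 1 after median centring (1762 genes). They numbered 6 with array weights (5004 genes) and 0 to 2 with single tumours left out (1177 to 3260 genes). The median of the members was -0.19, against -0.11 after quantile normalization, -0.27 after median centring and -0.30 with array weights; it ranged from -0.23 to -0.035 with single tumours left out and was 0.018 without both Stat2 KO tumour 3 and WT tumour 2, a choice made after seeing the data. Genes passing lower numbered 2 over the whole table, 0 after quantile normalization, 129 with array weights, 1 without the trend and 0 to 14 with single tumours left out, and genes passing higher 0, or 128 with array weights and 0 to 3. Genes with an unadjusted p under 0.05 numbered 1956, against 938 among brighter genes (fewer genes tested), 5004 with array weights and 1177 to 3260 with single tumours left out. Tumours of the same replicate number had deviations correlated at 0.24, 0.08 and 0.03 over genes, against -0.29 to 0.20 for different numbers. The labels name no pairing, and the numbers were not taken as pairs in the main fit. With the replicate block 0 members passed, and 3 genes passed lower over the whole table. The cause of these shifts was not tested. Without detection calls, levels near those of olfactory receptor genes (Egr1, Ier2, Fosb) limit what their differences can show.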
